A study of Mus musculus with 20 samples.

Results

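The promoter mark H3K4me3 was compared between 2 CUT&RUN libraries from nuclei labelled excitatory neuron and 2 from nuclei labelled inhibitory neuron. These are the 4 H3K4me3 libraries of a series of 20 libraries, which holds 5 antibodies (H3K4me3, H3K27ac, H3K4me1, H3K27me3 and the transcription factor EGR1) with 2 libraries per antibody and neuron type. CUT&RUN cuts out and sequences the DNA to which an antibody is bound in intact nuclei. Every library came from whole brain of mice aged 8 weeks with the genotype Sun1 f/f and Emx1Cre (+), so the inhibitory libraries carry the same alleles as the excitatory ones. The Cre is driven by the promoter of Emx1, a homeobox gene of the developing cortex and hippocampus, and Sun1 encodes a nuclear envelope protein. Nuclei were sorted by flow cytometry, but no source used here gives the gate that separated the neuron types. The labels do not state whether the 2 libraries of a type came from different animals, so p-values reflect only library-to-library spread, which may be technical. Peaks on chromosomes 1 to 19 and X were described across 21631 protein-coding genes.

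H3K4me3 is placed on nucleosomes around active and poised gene starts by the SET1 and MLL methyltransferase complexes, which are drawn to CpG-rich DNA. Broad H3K4me3 domains often lie over genes that define a cell type. Excitatory neurons of the cortex and hippocampus release glutamate and carry the vesicular transporter Slc17a7, whereas inhibitory neurons make GABA with the enzymes Gad1 and Gad2.

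The excitatory libraries held 79135 and 163053 peaks, against 159364 and 83532 in the inhibitory libraries. Both types thus held 1 long and 1 short list, and the read depth behind them is unknown because the deposited lists hold no counts. Peaks covered 48.3 and 69.1 Mb in the excitatory libraries, against 64.0 and 52.1 Mb in the inhibitory ones. The means were 58.7 ± 14.7 Mb in excitatory and 58.1 ± 8.39 Mb in inhibitory libraries (SD, n = 2 each), with a two-sided exact permutation p of 1, where 0.333 is the smallest value that 2 against 2 allows. The lists were deposited at a lenient threshold: 28.4% and 26.5% of the excitatory peaks passed a q of 0.05, against 23.9% and 47.6% of the inhibitory ones. The first excitatory library stood apart in that its shortest peak was 291 bp, against 183 bp in the second excitatory library and 184 and 180 bp in the inhibitory ones. A gene was measured by the percent of its gene-end window, 2 kb on each side of both annotated ends, that peaks covered.

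Promoters of 2 genes are shown because their H3K4me3 differed strongly between the types. Their starts lay inside a domain, meaning peaks joined across gaps of up to 1 kb, in inhibitory libraries only. Each sequence runs from 250 bases before to 50 bases after the RefSeq start (GRCm38.p6, the assembly of mm10), 5′ to 3′ on the gene's strand, with every CG dinucleotide in capitals.
Tbr1: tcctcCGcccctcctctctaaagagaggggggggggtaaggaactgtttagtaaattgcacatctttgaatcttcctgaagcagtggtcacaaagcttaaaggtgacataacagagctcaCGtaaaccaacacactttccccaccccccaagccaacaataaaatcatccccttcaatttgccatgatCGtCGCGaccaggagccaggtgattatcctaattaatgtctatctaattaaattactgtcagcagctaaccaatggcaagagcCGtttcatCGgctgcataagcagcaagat
Gabra6: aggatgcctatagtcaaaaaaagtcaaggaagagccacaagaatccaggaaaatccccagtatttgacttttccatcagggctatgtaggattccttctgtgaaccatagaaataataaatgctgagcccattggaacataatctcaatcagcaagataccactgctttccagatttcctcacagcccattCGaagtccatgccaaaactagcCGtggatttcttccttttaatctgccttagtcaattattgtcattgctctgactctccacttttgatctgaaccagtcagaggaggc
The Tbr1 promoter (chr2:61804203-61804502, plus strand) held 7 CG dinucleotides, and that of Gabra6 (chr11:42321023-42321322, minus strand) held 2. Over the start of Tbr1, a T-box transcription factor of deep-layer cortical neurons, the inhibitory libraries had domains at chr2:61803024-61805883 and chr2:61803081-61805882. The first excitatory library had no Tbr1 peak, and the second had a domain of 577 bp that did not reach the start.

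Of 15685 genes with peaks in at least 2 libraries, 474 (3.02%) differed in gene-end coverage at an adjusted p below 0.05 (limma, Benjamini-Hochberg). Coverage was higher in excitatory libraries at 282 genes (1.8%) and higher in inhibitory libraries at 192 genes (1.22%). At the 282 genes the median coverage was 23.8% and 26.2% in the excitatory libraries, against 5.20% and 4.49% in the inhibitory ones. At the 192 genes it was 8.78% and 13.2% in the excitatory libraries, against 26.99% and 29.3% in the inhibitory ones. By these medians, windows of the first set were near-empty in inhibitory libraries, while those of the second kept partial coverage in excitatory libraries. This does not hold for every gene, as 161 of the 282 and 136 of the 192 had a peak in all 4 libraries. Of the 282 genes, 49 had no peak at all in the inhibitory libraries, and of the 192 genes, 11 had none in the excitatory libraries. All 474 had both libraries of one type above both of the other, as 25.6% of all genes tested had with excitatory above and 20.3% with inhibitory above. The calls depended on which library was left out: limma called no gene without excitatory library 2, inhibitory library 1 or inhibitory library 2 (3283, 1396 and 1538 genes at an unadjusted p below 0.05), and 747 without excitatory library 1. All 474 genes kept their direction in each of these fits, and no gene passed without quantile normalization or on a log2 scale either (2346 and 2773 genes at an unadjusted p below 0.05).

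Among the genes that rose in excitatory libraries, G protein-coupled receptors for opioids and somatostatin stood at the top. Sstr4, a somatostatin receptor, had 62.8% and 50.2% of its window covered in the excitatory libraries, against 11.9% and 3.34% in the inhibitory ones. Oprd1, which encodes the delta opioid receptor, had 31.1% and 29.6%, against 0% in both inhibitory libraries. These were differences of 47.6 ± 5.08 and 30.1 ± 2.38 percentage points on the normalized scale (SE; adjusted p = 0.0136 and 0.0125, limma). The excitatory values of both genes lay far above every inhibitory value. Cacng3, an auxiliary subunit of AMPA-type glutamate receptors, had 34.6% and 36.8%, against 4.60% and 7.32% (difference 29.3 ± 2.21, adjusted p = 0.0125, limma). Tmem179 had 30.2% and 30.9%, Tmem132d 26.7% and 27.2%, and Pde2a, a cyclic nucleotide phosphodiesterase, 24.0% and 33.3%, each against 0% in both inhibitory libraries. Dpp10, an auxiliary subunit of Kv4 potassium channels, had 30.6% and 30.1% in the excitatory libraries, against 2.30% and 0%. A value of 2.30% is a single peak of the shortest width that the first inhibitory list holds. Cpne6, a calcium-binding copine, Nrsn2, Dclk3, the organic cation transporter Slc22a3, the transcription factor gene Twist2 and the myelin-associated gene Omg were likewise among the 15 largest differences, which ranged down to 26.0 percentage points at Omg. Fam43b and Ccdc184 kept 27.8% and 31.8%, and 28.8% and 32.5%, in the inhibitory libraries, and had 55.9% and 56.5%, and 59.1% and 55.9%, in the excitatory ones.

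**Figure D1:**
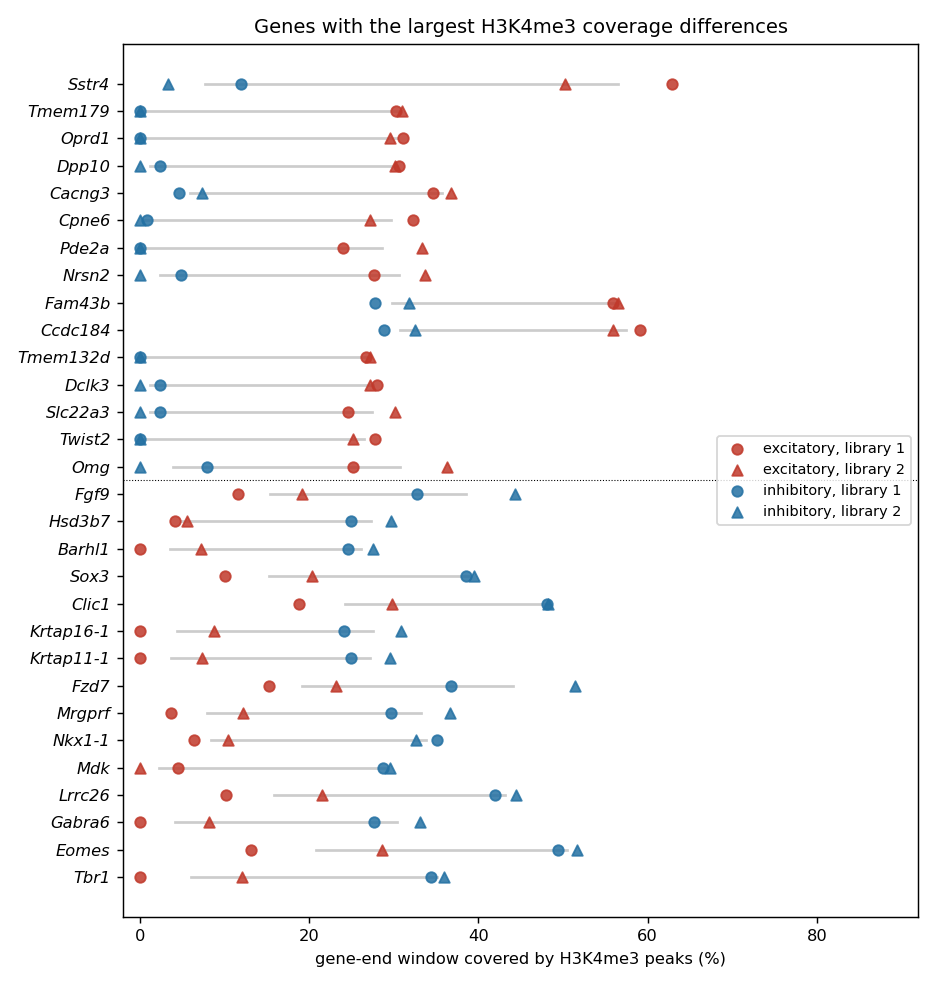
Percent of the gene-end window covered by H3K4me3 peaks (x axis) in each library for the 15 genes with the largest difference in each direction (y axis), with a grey line between the means of the types. Above the dotted line every excitatory point lies right of every inhibitory point, from Sstr4 down to Omg, and below it the order is the opposite, from Fgf9 down to Tbr1.

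Receptors for opioids, somatostatin and neuropeptide Y were taken as a list of 14 genes. This list, like the others below, was chosen with earlier results of these data known. Its shares therefore describe these libraries and test nothing. Of the 10 that were tested, 5 rose (50% of those tested, beside 1.8% of all genes) and none fell, with a median difference of 15.2 percentage points beside -0.12 for all genes tested. Sstr1, another somatostatin receptor, had 23.3% and 29.2% in excitatory libraries, against 2.30% and 0% in inhibitory ones. The kappa opioid receptor gene Oprk1 had 18.1% and 21.5%, against 3.10% and 0%, and the neuropeptide Y receptor gene Npy1r had 28.3% and 29.8%, against 10.4% and 12.4%. All 3 had excitatory values above both inhibitory values and passed the test (adjusted p of 0.0125, 0.0193 and 0.0175, limma). Sstr2 (30.5% and 31.6%, against 18.0% and 21.6%) and Npy5r (23.0% and 24.1%, against 4.60% and 15.3%) did not pass (adjusted p = 0.0546 and 0.11, limma), although their libraries did not overlap either. The mu opioid receptor gene Oprm1, described after its values were seen, had no peak at its gene ends in excitatory libraries. In the window around all of its annotated starts it had 19.7% and 24.9% in excitatory libraries, against 2.30% and 2.25% in inhibitory ones (adjusted p = 0.038, limma; 2.89% of 11886 genes rose in that window and 1.76% fell). The list's median stayed positive in every setting tried on the percent scale, between 5.58 and 23.8 percentage points.

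The glutamate and GABA receptor lists held members that moved in both directions. Of 13 AMPA receptor auxiliary subunits, Cacng3, Cacng5 and Shisa7 rose and Shisa8 fell (23.1% and 7.69%, beside 1.8% and 1.22% of all genes), and the list's median was 0.58 percentage points. Around annotated starts, counts were taken over list members also tested at gene ends. There 4 of 9 AMPA auxiliary genes rose and 1 fell, with a median of 10.1. Of 14 such genes of the GABA list, 4 rose and 1 fell, with a median of 8.24. The GABA median was 6.22 over all members measured around starts. In that window 2.89% of all genes rose and 1.76% fell. Cacng5 had 22.5% and 18.5% in excitatory libraries and no peak in inhibitory libraries, whereas Shisa8 had 6.94% and 15.9% in excitatory libraries, against 29.4% and 33.2% in inhibitory ones. Of 26 glutamate receptor genes, Gria1, which encodes an AMPA receptor subunit, and the delta receptor gene Grid1 rose (7.69%). Grin1, the obligatory NMDA receptor subunit, fell (3.85%). Gria1 had 15.7% and 18.8% in excitatory libraries, against 0% in both inhibitory libraries (adjusted p = 0.0174, limma). Grin1 had 26.7% and 34.3%, against 52.7% and 51.8% (adjusted p = 0.0218, limma), and its coverage around annotated starts differed by -8.04 percentage points without passing (adjusted p = 0.323, limma). Of 20 GABA receptor and transporter genes, 2 rose (10%), among them the receptor subunit gene Gabrg3. Gabra6, the receptor subunit of cerebellar granule neurons, fell (5%). The median was 2.80 for the glutamate receptors and 1.04 for the GABA list.

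Among the 15 genes with the largest fall in excitatory libraries were several transcription factors of neural development and of single brain regions. Tbr1 had 0% and 12.0% in excitatory libraries, against 34.3% and 35.9% in inhibitory ones (difference -29.95 ± 3.23 percentage points, adjusted p = 0.0139, limma). Eomes, a T-box factor known from intermediate progenitors and unipolar brush cells, showed 13.1% and 28.6%, against 49.4% and 51.6% (difference -29.5 ± 4.19, adjusted p = 0.0227, limma). Gabra6 had 0% and 8.17%, against 27.6% and 33.1% (difference -27.3 ± 2.77, adjusted p = 0.0125, limma). In all 3 genes the second excitatory library lay above the first, and both stayed below the inhibitory libraries. Barhl1, a homeobox factor of cerebellar granule neurons, had 0% and 7.15%, against 24.6% and 27.6%. Sox3, an X-linked factor of neural progenitors, had 10.1% and 20.3%, against 38.5% and 39.5%. The growth factor gene Mdk had 4.48% and 0%, against 28.7% and 29.5%, and the Wnt receptor gene Fzd7 had 15.2% and 23.1%, against 36.8% and 51.4%. The homeobox gene Nkx1-1, the keratin-associated genes Krtap11-1 and Krtap16-1, Lrrc26, Mrgprf, Clic1, the sterol enzyme gene Hsd3b7 and the growth factor gene Fgf9 completed the 15 largest, of which Fgf9 had the smallest difference, -22.8 percentage points. Among the 11 genes with inhibitory peaks and no excitatory ones, C1qtnf4 had 0% in both excitatory libraries, against 21.7% and 18.9%, and the nuclear receptor gene Nr0b2 had 0%, against 19.98% and 16.6%.

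At gene ends, the markers of the labelled types did not separate the libraries along the labels gene by gene. The median difference was 1.46 percentage points for the excitatory list (16 positive, 15 negative) and -2.68 for the inhibitory list (9 positive, 22 negative). In the settings tried on the percent scale these medians ranged from -1.93 to 2.37 and from -4.37 to -0.62. The inhibitory list thus leaned along its label, but the housekeeping genes had a median of -4.29. Of 31 tested genes of excitatory forebrain neurons, Rasgrf2, Ldb2 and Pcp4 rose (9.68%) and Tbr1 fell (3.23%), beside 1.8% and 1.22% of all genes. Rasgrf2 had 19.2% and 29.8% in excitatory libraries and no peak in inhibitory ones. Slc17a7 had 9.90% and 30.7%, against 33.3% and 36.9% (adjusted p = 0.222, limma), and Emx1 had 18.1% and 28.6%, against 18.97% and 17.1% (adjusted p = 0.497, limma). The Slc17a7 values of both excitatory libraries lay below the inhibitory ones, and the Emx1 values overlapped. Around annotated starts the Slc17a7 values overlapped too (19.8% and 47.6%, against 43.6% and 48.8%, adjusted p = 0.41, limma). Of 31 tested genes of inhibitory neurons, 2 rose (6.45%), among them Adarb2, a marker of caudally derived interneurons. Calb2, which encodes calretinin, fell (3.23%). Adarb2 had 22.1% and 24.8%, against 11.4% and 12.8%, and Calb2 had 12.9% and 13.4%, against 38.1% and 29.2%. Gad1 had 6.42% and 7.02%, against 7.51% and 6.59% (adjusted p = 0.773, limma), and these values overlapped. Gad2 had 3.64% and 10.9%, against 14.4% and 17.5% (adjusted p = 0.092, limma), and Slc32a1, the vesicular GABA transporter gene, had 22.2% and 12.8%, against 6.19% and 10.8% (adjusted p = 0.374, limma). Sst, Vip and Cort had no peak in the inhibitory libraries and one only in the second excitatory library, so they were not tested. Around annotated starts, list members also tested at gene ends were counted. Of 25 in the excitatory list 4 rose and 1 fell, and of 22 in the inhibitory list 2 rose and 2 fell. Of all genes measured around starts, 2.89% rose and 1.76% fell. Neurod6, a bHLH factor of cortical excitatory neurons, rose there (35.04% and 39.04% in excitatory libraries, against 8.02% and 0%, adjusted p = 0.0124, limma). The summed gene-end coverage of the excitatory list was 562 and 809 in excitatory libraries, against 646 and 676 in inhibitory ones, and that of the inhibitory list was 343 and 510, against 430 and 469. The names excitatory and inhibitory are therefore used here as labels of the libraries, and whether the labels match the sorted nuclei was not tested.

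Among cerebellar, thalamic, hypothalamic and brainstem markers, the genes that passed the test all fell in excitatory libraries. Of 22 genes of cerebellar granule and unipolar brush cells, 9 fell (40.9%, beside 1.22% of all genes tested) and none rose, with a median difference of -13.1 percentage points. Besides Gabra6, Barhl1 and Eomes these included Zic1, Zic4, Cdh15, Svep1 and Fat2. Fat2 had no peak around its annotated starts in any library, so its call rests on peaks outside that window. Around annotated starts, 9 of 17 list members fell and 1 rose, beside 1.76% and 2.89% of all genes. Zic1, a zinc-finger factor of granule neurons and their precursors, had 0% and 6.76% in excitatory libraries, against 14.2% and 21.4% in inhibitory ones. Zic1 and Zic4 are neighbours whose windows share peaks, so they are not independent. Atoh1, the factor that specifies granule precursors, had 0% and 21.6%, against 35.7% and 41.1%, and did not pass (adjusted p = 0.0598, limma). None of the 22 was at 0 in both libraries of either type, but 7 were at 0 in excitatory library 1 and none in any other library, and their summed coverage was 239 and 404 in excitatory libraries, against 521 and 614 in inhibitory ones. The median was -12.2 percentage points without excitatory library 1 and stayed between -22.2 and -7.92 in every setting tried on the percent scale. Because the nuclei came from whole brain, a change in the share of nuclei of a cell type and a change of the mark within nuclei cannot be told apart.

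Of 35 tested genes of thalamic, hypothalamic and brainstem neurons, 7 fell (20%) and none rose, with a median of -4.88 percentage points. The homeobox factors Barhl2 (8.60% and 11.05% in excitatory libraries, against 30.1% and 31.7%), Nkx2-4, Otx2, Irx1, Irx3 and Tlx3 fell, as did the oxytocin gene Oxt. Every one of these 7 had both inhibitory libraries above both excitatory libraries. The summed coverage of this list was 221 and 381, against 489 and 535, with Pmch at 0 in all libraries and Irx2 and Trh at 0 in both inhibitory libraries. Of its 37 members, 16 were at 0 in excitatory library 1 and 1 in excitatory library 2, against 4 and 6 in the inhibitory libraries. Without excitatory library 1 the list's median was -4.56 percentage points. Of 20 striatal projection neuron genes, the dopamine receptor gene Drd1 rose (35.5% and 25.2%, against 2.36% and 6.62%) and the transcription factor gene Ebf1 fell. Each was 5% of the list, beside 1.8% and 1.22% of all genes. Of 12 astrocyte genes the bicarbonate transporter gene Slc4a4 fell (8.33%), and of 11 vascular genes Cdh5 and Vtn fell (18.2%), beside 1.22% of all genes. None rose in either list, and none of 10 oligodendrocyte and 6 microglial genes passed. Around annotated starts, Slc4a4 had 29.1% and 29.8% in excitatory libraries, against 29.2% and 30.8% in inhibitory ones. Vtn had 26.6% and 30.0% there, against 28.8% and 28.5%. Neither passed in that window (adjusted p = 0.87 and 0.887, limma), and Cdh5 was not measured there. Of 7 vascular genes measured in that window, 1, Flt1, fell. The part of these cell types in the other differences was not tested.

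**Figure D2:**
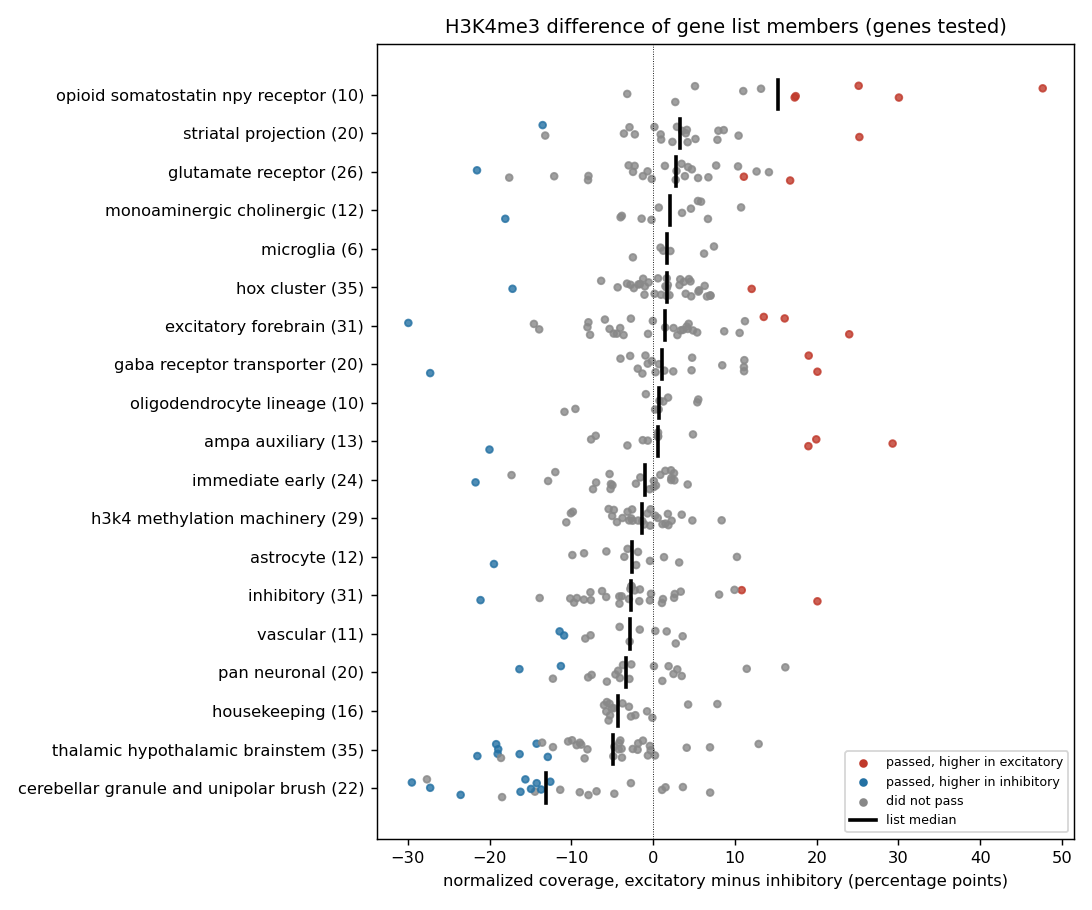
Normalized H3K4me3 difference, excitatory minus inhibitory (x axis, percentage points), of each tested member of the 19 gene lists (rows, number tested in brackets), with black bars for the list medians. The receptor list at the top has a median of 15.2 and the cerebellar list at the bottom one of -13.1, while the lists of the labelled neuron types straddle 0.

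General neuronal, housekeeping and H3K4 methylation genes served as a frame. Of 20 pan-neuronal genes, Syn1 and Stmn2 fell (10%, beside 1.22% of all genes tested) and none rose. None of 16 housekeeping genes passed, but 14 of them had a negative difference, with a median of -4.29 percentage points. None of 29 tested writers, readers and erasers of H3K4 methylation passed, with a median of -1.33. The methyltransferase genes Kmt2a (31.95% and 31.9%, against 41.7% and 43.4%) and Setd1a (28.4% and 34.4%, against 39.1% and 45.8%) had adjusted p-values of 0.08 and 0.0967 (limma). Of 24 immediate early genes, Homer1, a synaptic scaffold gene, fell (4.17%, beside 1.22% of all genes). Egr1 had 24.7% and 38.9%, against 42.3% and 46.3% (adjusted p = 0.185, limma). Of 35 tested HOX genes, which neurons of the forebrain keep silent, 1 rose and 1, Hoxd9, fell. Each was 2.86% of the list, beside 1.8% and 1.22% of all genes. Of 12 monoaminergic and cholinergic genes, the histidine decarboxylase gene Hdc fell (8.33%, beside 1.22% of all genes). Hdc had no peak around its annotated starts in any library. Sun1, the gene of the f/f allele, had 26.98% and 31.4%, against 26.3% and 24.3% (adjusted p = 0.476, limma).

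The position of the difference was read around the gene start. For genes in the RefSeq promoter table, peaks were read at single positions around the annotated start nearest the gene's 5′ end. Since these genes were chosen by this same contrast, the profile describes where the difference lies and tests nothing. Among 199 genes higher in excitatory libraries, the start was covered in 81.9% and 84.9% of genes in excitatory libraries, against 37.7% and 38.2% in inhibitory ones. At 1 kb downstream, coverage was 62.8% and 65.8%, against 17.6% in both inhibitory libraries, while at 1 kb upstream it was 13.1% and 15.1%, against 5.53% and 8.54%. At 500 bp upstream it was 36.7% and 38.2%, against 17.1% and 19.6%. The types thus differed on both sides of the start, by more at 1 kb downstream than at 1 kb upstream. Among 138 genes higher in inhibitory libraries, the start was covered in 36.2% and 42.8% of genes in excitatory libraries, against 67.4% and 74.6% in inhibitory ones. Over all 12439 tested genes with a start, the values were 73.2% and 78.1%, against 76.3% and 78.2%.

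**Figure D3:**
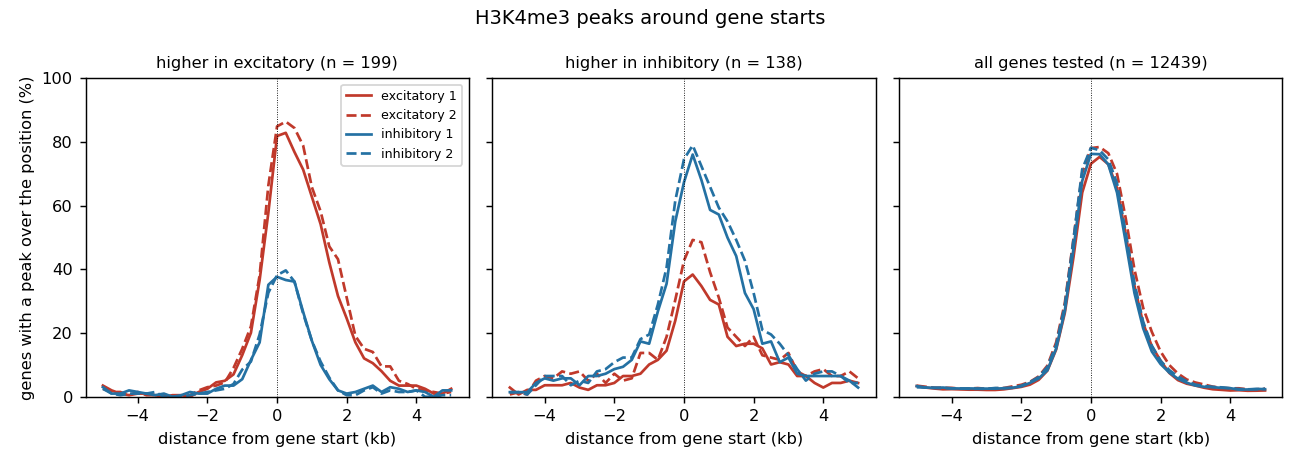
Percent of genes with an H3K4me3 peak over each position (y axis) against the distance from the gene start in kb (x axis, positive downstream), in each library, for genes higher in excitatory, genes higher in inhibitory and all genes tested. The lines lie apart on both sides of the start in the called genes, and further downstream than upstream, and run together over all 12439 genes.

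Promoters of the called genes held fewer CG dinucleotides than those of other genes with H3K4me3. The median number in 300 bases was 13 for the 199 genes higher in excitatory libraries, 15 for the 138 higher in inhibitory libraries and 19 for all 12439 tested genes. The median GC content differed less, at 59.3%, 58.2% and 60.3%. The GC box GGGCGG, read on both strands, occurred in 48.2%, 55.8% and 61.1% of these promoters, and TATAAA in 11.1%, 15.2% and 8.05%. The E-box CAGATG, the motif class of neuronal bHLH factors, occurred in 17.6%, 15.9% and 12.4%, and the EGR motif GCGNGGGCG, which contains GGGCG of the GC box, in 8.04%, 6.52% and 10.1%. These shares are descriptions of letters in the windows and were not tested. Called genes also differed in length, with medians of 35.1 kb for those higher in excitatory libraries, 11.3 kb for those higher in inhibitory libraries and 22.2 kb for all tested. On the X chromosome, 3 genes rose and 8 fell among 472 tested, beside 1.8% and 1.22% of all genes tested.

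Domain width, the span of the widest H3K4me3 domain at a gene after joining peaks across gaps of up to 1 kb, was compared at 13491 genes with a domain in all 4 libraries. Domains were wider in excitatory libraries at 114 genes (0.845%) and wider in inhibitory libraries at 66 genes (0.489%), together 1.33%, at an adjusted p below 0.05 (limma, Benjamini-Hochberg). Median widths at the 114 genes were 3.04 and 3.27 kb in excitatory libraries, against 1.37 and 1.43 kb in inhibitory ones, and at the 66 genes they were 1.55 and 1.70 kb, against 3.35 and 3.56 kb. Over all 13491 genes they were 1.837 and 2.002 kb, against 1.836 and 1.895 kb. Of the 114 genes, 43 were also higher in coverage, and of the 66 genes, 14 were lower. Without joining across gaps no gene passed (limma, 1774 at an unadjusted p below 0.05), 14 of the 114 and 14 of the 66 genes changed sign, and their median log2 differences were 0.72 and -0.32, against 1.17 and -1.13 with joining. None passed when any 1 library was left out, although all 180 kept their direction in those leave-one-out fits.

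In the excitatory direction, Camk2a was chosen for the text after its values were seen. Camk2a, which encodes a kinase of excitatory synapses and belongs to the excitatory list, had domains of 3445 and 3946 bp in excitatory libraries, against 798 and 690 bp in inhibitory ones (log2 difference 2.39, adjusted p = 0.0278, limma), while its coverage did not pass (adjusted p = 0.455, limma). Nrxn3, a presynaptic adhesion gene, had 2563 and 2679 bp, against 184 and 180 bp, which are the shortest peaks of those inhibitory lists, and the first of them lies at the other end of the gene. Gpr26, an orphan receptor gene, had 4120 and 4205 bp, against 457 and 180 bp, and Cacng3 had 3850 and 4803 bp, against 184 and 586 bp. All excitatory widths of these genes exceeded every inhibitory width. In the inhibitory direction, Lhx6, the homeobox factor of interneurons from the medial ganglionic eminence and a member of the inhibitory list, had 348 and 353 bp in excitatory libraries, against 2645 and 2676 bp in inhibitory ones (log2 difference -3.00 ± 0.33, adjusted p = 0.0418, limma). These widths compare different sites. The excitatory domains lay at chr2:36105811-36106158 and chr2:36106254-36106606, and overlapped neither inhibitory domain (chr2:36102469-36105113 and chr2:36102311-36104986). The best -log10 q at the Lhx6 gene ends was 0.37 and 0.68 in excitatory libraries, against 7.46 and 4.87. Lhx6 coverage at gene ends did not pass (4.35% and 6.70%, against 11.6% and 12.4%, adjusted p = 0.11, limma), but around its annotated starts it fell (6.51% and 10.02%, against 41.2% and 41.0%, adjusted p = 0.00664, limma). The netrin receptor gene Unc5b had 1749 and 1549 bp, against 6040 and 5926 bp, and Hsd3b7 had 299 and 304 bp, against 3053 and 2827 bp. The contrast at Unc5b rests on joined peaks: with no joining its log2 difference was 0.28 (adjusted p = 0.825, limma).

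The widest domains of each type are given as values. By mean width in excitatory libraries the first 8 genes included Tmem178b (5108 and 5269 bp, against 3628 and 3794 bp), the activity-induced factor gene Egr3 (4757 and 5438 bp, against 3428 and 4375 bp) and Syt1, a synaptic vesicle calcium sensor gene (3678 and 6228 bp, against 3708 and 3965 bp). In the width test none of these 3 passed (adjusted p of 0.156, 0.229 and 0.508, limma), and the Syt1 widths overlapped. Coverage of Tmem178b went the other way and fell (21.3% and 24.2%, against 40.6% and 36.4%, adjusted p = 0.0337, limma). By mean width in inhibitory libraries they included Car10 (3541 and 4357 bp, against 6578 and 6425 bp), the exocytosis gene Cadps2 (3271 and 3693 bp, against 6287 and 6416 bp) and Cited2 (3124 and 4813 bp, against 6393 and 6205 bp). These 3 did not overlap between the types and did not pass either (adjusted p of 0.242, 0.118 and 0.356, limma).

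**Figure D4:**
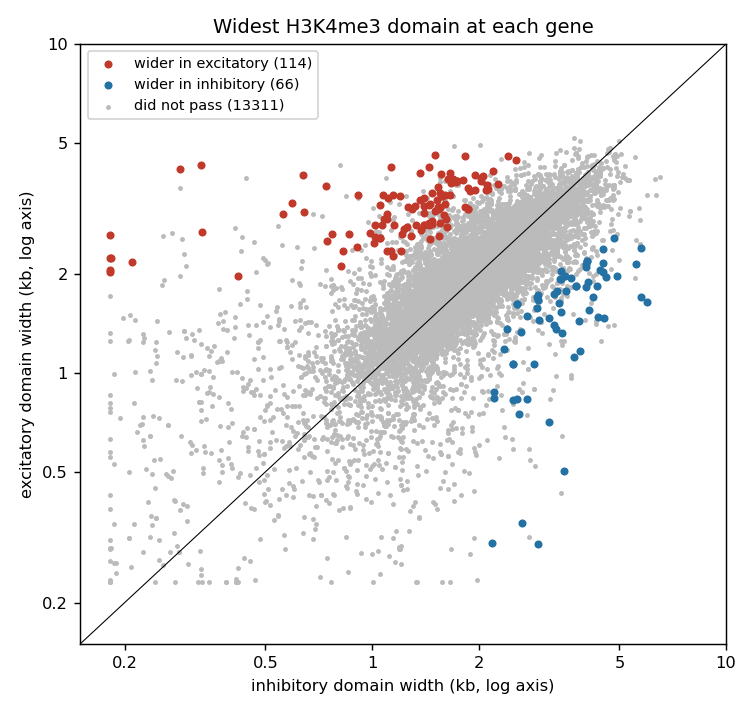
Geometric mean width of the widest H3K4me3 domain at each of 13491 genes in excitatory libraries (y axis, kb, log axis) against inhibitory libraries (x axis, kb, log axis), with the line of equal width. The 114 red and 66 blue genes passed the test, and most other genes lie near the line.

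Regions of the genome were compared by merging overlapping peaks of the 4 libraries. Peaks of all 4 libraries fell in 20984 regions with a median width of 1735 bp, of which 59.2% touched a gene-end window. Both excitatory libraries and neither inhibitory library had a peak in 7300 regions, with a median width of 565 bp, of which 10.5% touched a gene-end window. Both inhibitory libraries and neither excitatory library had one in 11420 regions, with a median width of 532 bp, of which 6.23% did. The other 306026 regions, with peaks in other combinations of libraries, had a median width of 184 bp, and 5.97% touched a gene-end window. Regions of a single type were shorter than shared regions. Merging favours this order, because a region with peaks of more libraries joins more peaks, so no conclusion is drawn from it. The gene-end share of the inhibitory ones was close to that of the other regions. With peaks that passed a q of 0.05 the counts were 1455 for excitatory and 6573 for inhibitory libraries. At the gene level, 381 genes (1.76% of 21631) had peaks in both excitatory and no inhibitory libraries, 144 (0.666%) the reverse, 13491 (62.4%) in all 4, and 3880 (17.9%) in none.

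Other antibodies, profiled in libraries of their own, were then read at the genes chosen by H3K4me3. Whether these libraries shared nuclei with the H3K4me3 libraries is not stated in the labels. H3K27ac, a mark of active promoters and enhancers, differed in the same direction: of 248 genes with higher H3K4me3 in excitatory libraries, 228 had a positive H3K27ac difference, and of 175 with higher H3K4me3 in inhibitory libraries, 145 had a negative one. Over all 14152 genes tested for both marks, 49.1% were positive. The median differences were 10.3, -7.62 and -0.13 percentage points. At all 282 genes higher in excitatory libraries, the median H3K27ac coverage was 11.7% and 13.9% in excitatory libraries, against 0% in both inhibitory libraries. At the 192 genes higher in inhibitory libraries it was 4.66% and 9.08%, against 18.4% and 17.6%. At an unadjusted p below 0.05, 147 of the 248 genes were higher in excitatory libraries (59.3%, beside 6.95% of all genes) and 71 of the 175 lower (40.6%, beside 6.46%), while no gene passed an adjusted p of 0.05 in either direction (limma). Leaving out each H3K27ac library in turn gave 219 to 230 positive of 248 and 29 to 36 positive of 175.

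H3K27me3, the Polycomb mark, went the opposite way. Of 258 genes with higher H3K4me3 in excitatory libraries, 197 had a negative H3K27me3 difference, and of 126 with higher H3K4me3 in inhibitory libraries, 89 had a positive one, beside 44.5% positive over all 7533 genes tested for both. At all 282 genes higher in excitatory libraries, the median H3K27me3 coverage was 17.6% and 22.4% in excitatory libraries, against 37.9% and 36.9% in inhibitory ones. At the 192 genes higher in inhibitory libraries it was 11.9% and 10.7%, against 2.62% and 0%. Over all genes tested for H3K4me3 the median was 0% in both excitatory libraries, against 3.70% and 0%. Tmem179 is an example, with 8.97% and 13.9% of its window under H3K27me3 in excitatory libraries, against 35.7% and 33.5% in inhibitory ones. Calb2 is one in the other direction, with 44.0% and 57.7%, against 3.70% and 0%. Sstr4 kept H3K27me3 in all libraries (59.8% and 55.9%, against 67.1% and 60.3%). No gene passed an adjusted p for H3K27me3 (limma, 701 higher and 1015 lower at an unadjusted p below 0.05, or 9.31% and 13.5% of all genes).

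H3K4me1, found at enhancers and flanking promoters, had a positive difference at 183 of 282 genes with higher H3K4me3 in excitatory libraries and a negative one at 140 of 188 with higher H3K4me3 in inhibitory libraries. The medians were 5.60 and -9.87 percentage points, beside -0.43 over all 15184 genes, and 15 of the 282 and 11 of the 188 passed an adjusted p in the same direction (5.32% and 5.85%, beside 0.626% and 0.514% of all genes; limma). At an unadjusted p below 0.05, 8.81% of all genes were higher and 8.48% lower. EGR1 had the smallest medians of the 4 antibodies, with a positive difference at 172 of 272 and a negative one at 103 of 150 genes, and medians of 1.89 and -2.11 beside -0.49 over all 13859 genes. Without quantile normalization the EGR1 differences at the genes higher in inhibitory libraries turned mostly positive (85 of 150). No gene passed an adjusted p for EGR1 (limma, 1137 higher and 827 lower at an unadjusted p below 0.05, or 8.2% and 5.97% of all genes).

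**Figure D5:**
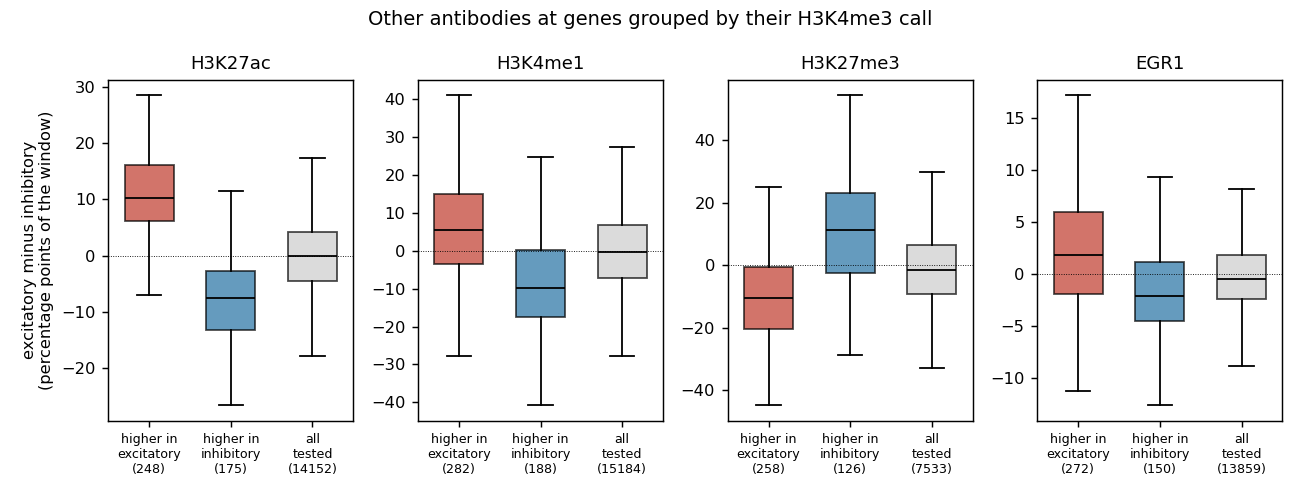
Normalized difference, excitatory minus inhibitory (y axis, percentage points of the gene-end window), for 4 other antibodies at genes with higher H3K4me3 in excitatory libraries (red), in inhibitory libraries (blue) and all genes tested for both (grey, number of genes in brackets). Boxes show quartiles and medians and whiskers reach 1.5 interquartile ranges. The H3K27ac medians are 10.3, -7.62 and -0.13, and those of H3K27me3 lie on the opposite sides, at -10.5 and 11.4.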

How the data were processed

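Per the submitters' processing notes, the authors used MACS2 2.2.5, SAMtools 1.12, Bowtie2 2.3.5, Trim Galore 0.5.0, cutadapt 1.18 and Picard 2.25.0 with mm10. Settings and any control library were not stated. Each deposited list holds the peaks of a single library, with a fold enrichment (ratio), -log10 p, -log10 q and a score per peak, which are their values. The largest p in the H3K4me3 lists was 0.0483 to 0.0495, so many peaks fail a false discovery rate. The lists hold no read counts, so depth is unknown and no counting interval can be given.

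Genes came from RefSeq GRCm38.p6; 17274 had a start and strand. Percent coverage of gene-end windows (2 kb on each side of both ends) was brought to a common distribution by quantile normalization, then tested in limma 3.58.1 (R 4.3.3) (trend, two-sided, Benjamini-Hochberg over all genes with a covered base in at least 2 libraries, threshold 0.05). Differences are excitatory minus inhibitory on that scale; levels are not normalized. Domain width was fitted as log2 after joining peaks across 1 kb. The gene-start window takes 2 kb on each side of every annotated start. Scripts were tested on simulated data. Alternatives changed normalization, scale, peak threshold, filter, window, joining and libraries. Named genes were the 15 with the largest difference per direction, up to 6 members per list by absolute difference, the 8 largest width differences and widest domains per type, genes with peaks in 1 type, and Emx1, Slc17a7, Gad1, Gad2, Slc32a1, Sun1 and Egr1; other list members are named where they passed the test or as examples chosen after their values were seen. Members and lists were chosen with earlier results of these data known. Some list members and promoters are not reported here.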

Additional observations from a re-analysis of the deposited data

How the results depend on the processing

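Counts of genes with different coverage (474; 282 higher in excitatory, 192 in inhibitory libraries) depended on the settings. No gene passed (0 in each direction, limma) without quantile normalization, on the log2(percent + 1) scale, or with 1 kb windows. In these settings, each changed singly, 2346, 2773 and 2136 genes had an unadjusted p below 0.05. With genes covered in 1 library it was 256 (158 and 98), in all 4 libraries 303 (171 higher in excitatory), and over the gene body plus 5 kb 111 (64 and 47). Leaving out each library gave 0 to 747 in all, 0 to 500 and 0 to 247. Differences between replicates 1 and 2 were hardly correlated between the types (r = 0.06 across 15685 genes). The labels do not say whether the replicate numbers pair the libraries. With the replicate block 1221 passed (645 and 576). Of the 282 and 192 genes, 16 and 6 changed sign over the gene body. With 1 kb windows, 4 and 2 of the 281 and 189 measured changed sign. Around starts only 195 and 134 were measured, of which 5 and 3 changed sign. Widths (180; 114 and 66) gave 94 (53 and 41) without quantile normalization and 0 in each direction with the replicate block, without joining peaks (1774 at an unadjusted p below 0.05) and without any 1 library.

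Single genes changed sign as follows, with the cause not tested. Emx1 was -0.108 where -log10 p was 3 or more, and Slc32a1 -1.40 with q below 0.05. Gad1 was 1.22 with equal numbers of top peaks, 5.24 with 1 kb windows and 1.07 over the gene body. With 1 kb windows Grid1 was -0.964, Egr1 1.88 and Sun1 -1.81, and over the gene body Sun1 was -0.516 and Dpp10 -0.0420. Without joining, Unc5b was 0.28 and Gpr62 0.27 (log2 width). Covered length was 38.1 Mb in excitatory and 39.8 Mb in inhibitory libraries at a -log10 p of 3 or more, and 33.95 and 38.6 Mb at q below 0.05. Regions of excitatory libraries only numbered 2810 and 1455, and of inhibitory libraries only 7065 and 6573, at these thresholds. Without quantile normalization, a setting added for the other antibodies after seeing the data, 32 of 258 H3K27me3 differences and 85 of 150 EGR1 differences were positive. With no counts, depth could not be weighed.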

Other observations

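Windows around annotated starts, which can lie inside a gene and outside its gene-end windows, gave values for some list members that the gene ends did not. These genes were picked after their values were seen. Gria2, an AMPA receptor subunit gene, had 31.5% and 30.8% of its start window covered in excitatory libraries, against 64.3% and 66.1% in inhibitory ones (adjusted p = 0.00664, limma), while its gene ends did not pass (adjusted p = 0.424, limma). The somatostatin receptor gene Sstr3 had no peak at its ends and 44.3% and 43.0% around its starts in excitatory libraries, against 47.6% and 49.0% in inhibitory ones (adjusted p = 0.492, limma). Neurod1, a bHLH factor on both the excitatory and the cerebellar list, had 27.9% and 40.8%, against 6.85% and 14.1% (adjusted p = 0.043, limma), and was the only member of the cerebellar list that rose around starts, where 9 fell.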
